A study of Homo sapiens with 12 samples.

Results

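The wybutosine genes are the enzymes that build a bulky modified guanosine beside the anticodon of phenylalanine tRNA. In this family 7 of the 28278 genes in the count table were followed: TRMT5, TYW1, its paralog TYW1B, TRMT12 (also called TYW2), TYW3, LCMT2 and TYW5. TRMT12 and TYW1B were picked because TRMT12 mRNA was not detected and TYW1B mRNA was strongly lower in UBQLN1 knockout cells, and the other 5 because they complete the pathway. All 7 were among the 15916 genes that passed the filter on low counts. The values that chose them were the counts of wild type and knockout libraries at normal O2, so that contrast is given for them as a description with no test.

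RNA-seq was performed on human embryonic stem cells (hESCs) of the line WA26, and 8 libraries in 4 groups of 2 were analysed. The first group was wild type (WT) cells at normal O2. The second was UBQLN1-/- knockout (KO) cells at normal O2, the third KO cells at 5% O2, and the fourth KO cells treated with the antioxidant N-acetyl-L-cysteine (NAC). UBQLN1 encodes ubiquilin 1, a shuttle that carries ubiquitinated proteins to the proteasome, and it was disrupted with CRISPR-Cas9. The study picked 2 clones per genotype, and the clone behind each library is not given in the sources used here, so a difference between genotypes and a difference between clones cannot be told apart. Treated WT cells were not analysed here. The labels give no duration for either treatment, the text of the study describes a short 5% O2 exposure for RNA-seq, and its scheme describes culture over several passages for both. The study used DMSO as the vehicle control for NAC, while the labels list the untreated KO libraries as without treatment, so NAC, its vehicle and any difference in duration cannot be told apart.

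Library totals ran from 31236968 to 41639350 counts. UBQLN1 itself had 7382 and 7591 counts in WT and 1559 and 1789 in untreated KO cells, and it remained between 1476 and 2392 counts in the treated KO libraries. All 12 pluripotency markers examined were detected in every group, with summed levels of 6026 and 6447 CPM in the NAC libraries and from 6813 to 7144 CPM in the other 6 (CPM are counts scaled to the normalized library size). With NAC against untreated KO, 5 of the 12 were called lower and 3 higher, from DNMT3B (log2 fold change -0.97) to DPPA4 (0.70). Endoderm and mesoderm markers summed to under 10 CPM in every library, and 1 of 6 endoderm markers was at 0 throughout. A list of 6 neural progenitor markers, 1 of them at 0 throughout, was not flat: it summed to 242 to 278 CPM in WT, 440 to 466 in untreated KO, 222 to 298 at 5% O2 and 131 to 143 with NAC. NES made up nearly all of that sum, with means of 245.9, 436.5, 249.4 and 127.1 CPM in this order. In KO against WT, NES was called higher (log2 fold change 0.83), and DCX (-0.09) and SOX1 (0.63) were not called. The 8 fibroblast and stroma markers summed to 512 to 627 CPM in WT, untreated KO and 5% O2 libraries and to 547 and 936 CPM in the NAC libraries. The part of these markers in the values below was not tested.

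Wybutosine is a tricyclic derivative of guanosine, found next to the anticodon of phenylalanine tRNA, where it strengthens codon pairing and helps the ribosome to keep its reading frame. TRMT5 places the first methyl group on the guanosine, TYW1 closes the additional ring with an iron-sulfur cluster and a radical of S-adenosylmethionine, and TRMT12 attaches the long side chain. TYW3 and LCMT2 (TYW4) add further methyl groups and a methoxycarbonyl group, and TYW5, a JmjC-type dioxygenase, can hydroxylate the side chain. TYW1B is a duplicate of TYW1 on the same chromosome, and less is known of what it does.

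The duplication reaches into the promoters. The 250 bases before the RefSeq start sites of TYW1 and TYW1B (build GRCh38.p14) are shown because TYW1B was strongly lower in KO cells and TYW1 was not. TYW1 is on the plus strand at chr7:66996583-66996832, and TYW1B on the minus strand at chr7:72828201-72828450. The TYW1 window ends where its full-length GENCODE transcript also begins, which lies inside the GENCODE gene span given below because a short alternative transcript starts further upstream. Both are written 5′ to 3′ on the strand of the gene, and capitals mark the bases that differ in their alignment.
TYW1: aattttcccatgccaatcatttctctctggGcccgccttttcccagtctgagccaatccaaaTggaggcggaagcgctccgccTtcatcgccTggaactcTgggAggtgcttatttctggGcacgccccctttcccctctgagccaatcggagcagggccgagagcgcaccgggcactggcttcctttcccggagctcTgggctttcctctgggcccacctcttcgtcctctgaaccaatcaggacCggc
TYW1B: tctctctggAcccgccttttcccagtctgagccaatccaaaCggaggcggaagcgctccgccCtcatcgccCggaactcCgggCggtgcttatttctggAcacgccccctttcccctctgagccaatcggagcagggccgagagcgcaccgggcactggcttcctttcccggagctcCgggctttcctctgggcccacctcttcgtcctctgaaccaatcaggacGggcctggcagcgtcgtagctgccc

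Bases 22 to 250 of the TYW1 sequence aligned with bases 1 to 229 of the TYW1B sequence in a single block without gaps, and 220 of the 229 aligned bases (96.1%) were identical. Over the aligned stretch TYW1 held 13 CG pairs and TYW1B 18. The full windows held 13 CG pairs for TYW1, 20 for TYW1B, 24 for TYW5, 14 for LCMT2 and 6 for TRMT5, against a median of 11 over the 35116 promoters in the table. The RefSeq start also differs from the GENCODE start for TRMT5 and TYW5. The TRMT5 window (chr14:60981691-60981940) lies upstream of its GENCODE span given below without touching it, and the TYW5 window (chr2:199955492-199955741) lies mostly inside its span. The letters CCAAT, searched on both strands, were found 3 times in the aligned stretch of each of the pair and once more in the rest of the TYW1 window; 32.0% of all promoters held them. The letters ACGTG, which never overlap CCAAT, were found once in LCMT2, once in TRMT5 and not in TYW1, TYW1B or TYW5, and 18.5% of all promoters held them. No promoter sequence was available for TYW3, and none was examined for TRMT12.

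In genome build hg38 with GENCODE annotation, TRMT5 lies on chromosome 14 (60971441 to 60981170, minus strand), TYW1 on chromosome 7 (66995173 to 67239514, plus strand) and TYW1B on chromosome 7 (72558744 to 72828200, minus strand). TRMT12 lies on chromosome 8 (124450820 to 124462150, plus strand), TYW3 on chromosome 1 (74733152 to 74766678, plus strand), LCMT2 on chromosome 15 (43323649 to 43330582, minus strand) and TYW5 on chromosome 2 (199928913 to 199955736, minus strand). The longest transcripts of TRMT12 and LCMT2 have 1 exon, those of the other genes 2 to 16. The TYW1 pair is so alike that 55.3% of the 31-base words of the longest TYW1 transcript also stand in TYW1B transcripts, and 59.2% of those of TYW1B stand in TYW1. featureCounts leaves out reads that align to several places by default, so counts of either gene rest mostly on the stretches that differ and are uncertain to that degree. Of the TRMT12 words, 0% stand anywhere else in the genome, and for the remaining 4 genes 1.79% to 10.4% do.

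In WT cells the pathway genes were expressed at modest and unequal levels. On the scale of CPM per kilobase of the longest transcript, TYW1 was at 7.95 ± 1.59 (SD, n = 2), TRMT5 at 6.94 ± 0.361, TYW3 at 4.04 ± 0.0325, TYW1B at 3.15 ± 0.352, TRMT12 at 2.92 ± 0.592, LCMT2 at 2.19 ± 0.0885 and TYW5 at 1.82 ± 0.0850. The libraries of TYW1 and TRMT5 overlapped in this order, as did those of TYW1B and TRMT12, and the other neighbours did not. These levels are a description and no order was tested.

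TRMT12 mRNA was not detected in the untreated KO libraries at this depth. It had 184 and 284 counts in WT and 0 and 0 counts in untreated KO cells, which is 5.51 and 7.36 CPM against 0 and 0 CPM. With a floor of 3 counts per library, which is 0.0771 CPM as the mean of these KO libraries, its level was at least 83.5-fold lower in KO. Summed over libraries, 0 counts against 468 give 0% of the WT level (95% interval 0% to 0.729%, counting error only). In bulk RNA, fewer cells that express a gene and less RNA per cell cannot be told apart. The treated KO cells stayed close to this floor. At 5% O2 TRMT12 had 4 and 6 counts, 2.11% of the WT level (95% interval 1.00% to 3.92%), and with NAC it had 0 and 2 counts, 0.450% (0.0544% to 1.64%).

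TYW1B mRNA was low in KO cells but was still counted in every KO library. It had 302 and 409 counts in WT and 66 and 87 in untreated KO cells, then 58 and 30 at 5% O2 and 56 and 43 with NAC. Both WT libraries therefore stood above all 6 KO libraries. On the CPM scale the level was 9.83 ± 1.10 (SD, n = 2) in WT, 1.95 ± 0.229 in untreated KO, 1.18 ± 0.345 at 5% O2 and 1.45 ± 0.0180 with NAC. The log2 fold change of untreated KO against WT was -2.33 (SE 0.26), or 19.8% of the WT level (95% interval 16.5% to 23.7%, counting error only). Among all tested genes, 0.685% had a log2 fold change of -2 or lower in this contrast and 0.622% were called lower at an adjusted p under 0.05; since both genes were selected on these libraries, nothing is read from that share.

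**Figure D1:**
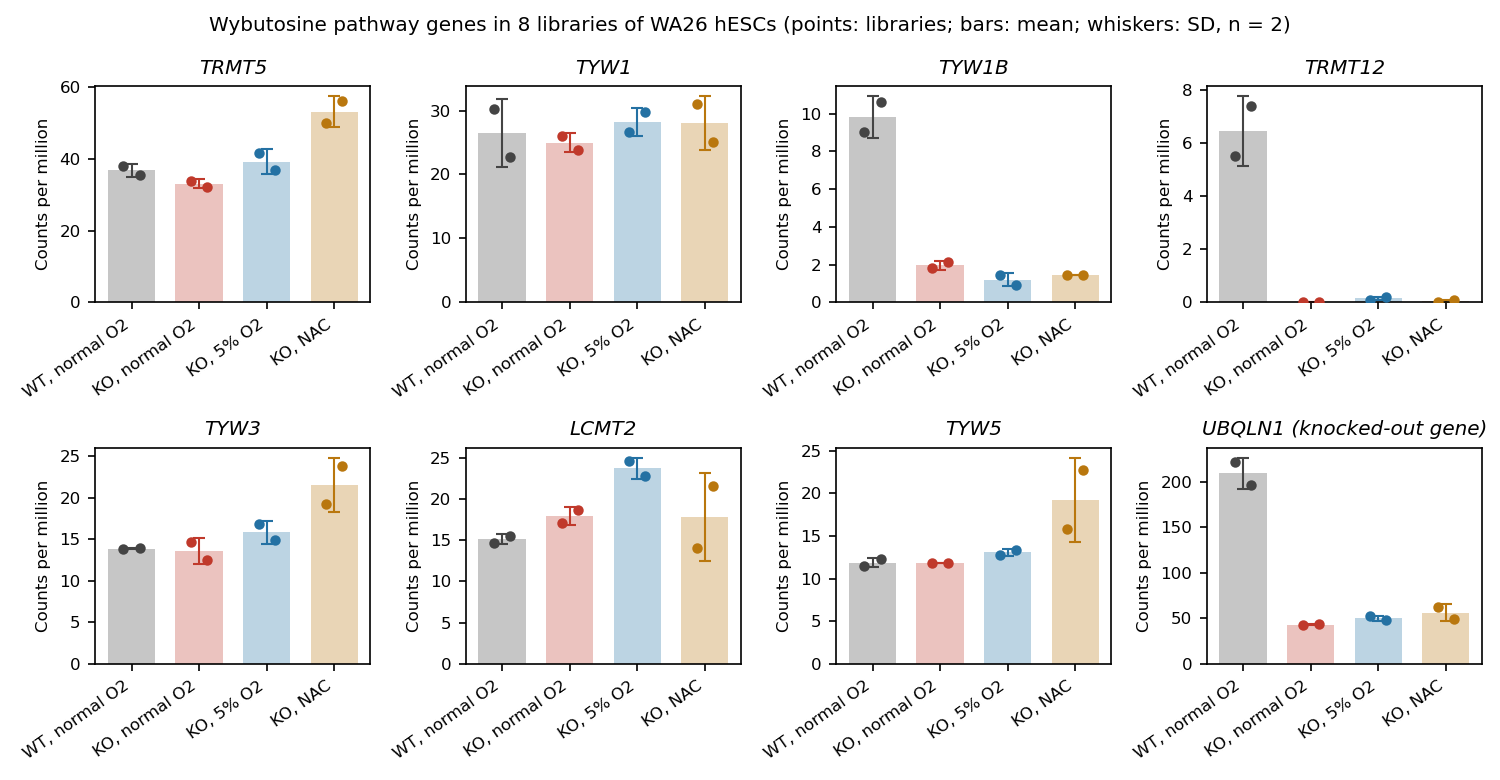
Level of each wybutosine gene and of UBQLN1 in CPM (vertical axes, linear from 0) by group, with points for libraries, bars for the mean and whiskers for the SD of 2 libraries. TRMT12 and TYW1B stand high in WT alone, with TYW1B between 0.935 and 2.11 CPM in the 6 KO libraries, while the other 5 genes stay within about the same range in WT and untreated KO cells.

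The paralog TYW1, the ring-forming enzyme, was at a like level in both genotypes. It had 1009 and 877 counts in WT and 960 and 983 in untreated KO cells, and the CPM values of the libraries overlapped (30.2 and 22.7 against 26.0 and 23.9; log2 fold change -0.09, SE 0.15). The TYW1B share of the counts of the pair was 23.04% (exact 95% interval 20.8% to 25.4%) and 31.8% (29.3% to 34.4%) in the WT libraries. It was 6.43% (5.01% to 8.11%) and 8.13% (6.56% to 9.93%) in untreated KO cells, and from 3.05% to 5.41% in the 4 treated KO libraries. The pair together was at 39.3 and 33.3 CPM in WT and at 27.8 and 26.0 CPM in untreated KO cells.

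**Figure D2:**
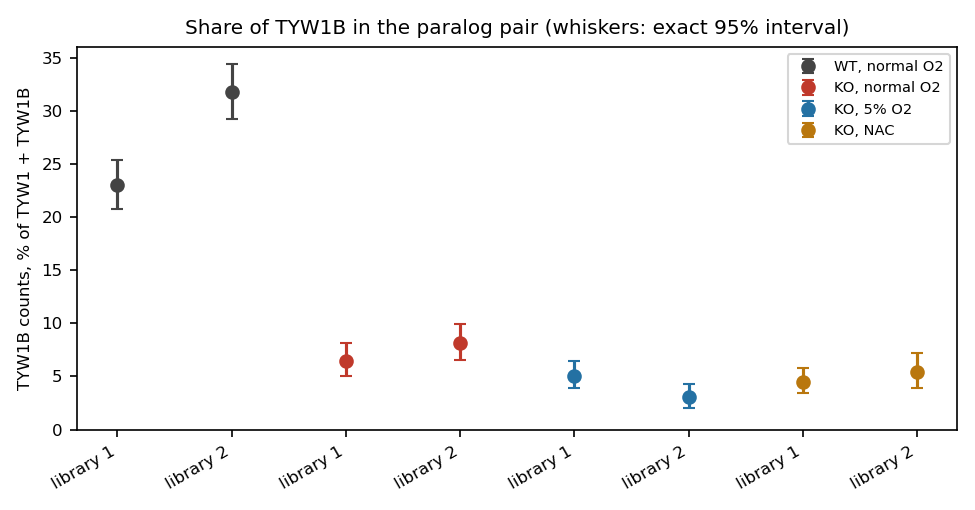
TYW1B counts as a percentage of TYW1 plus TYW1B counts (vertical axis, from 0) in each of 8 libraries, with exact 95% binomial intervals that cover counting error only. The WT libraries sit at 23.04% and 31.8%, and no KO library exceeds 8.13%.

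The other 4 enzymes of the pathway differed little between WT and untreated KO cells. TRMT5, which starts the pathway, was at 38.2 and 35.4 CPM in WT and at 33.9 and 32.2 CPM in KO (log2 fold change -0.15, SE 0.11). TYW3 was at 13.8 and 13.97 CPM in WT and at 14.7 and 12.5 CPM in KO (-0.03, SE 0.15). TYW5 was at 11.5 and 12.3 CPM in WT and at 11.8 and 11.8 CPM in KO (-0.005, SE 0.17). LCMT2, which completes the side chain, was at 14.7 and 15.6 CPM in WT and at 17.2 and 18.7 CPM in KO (0.24, SE 0.18). Both libraries of KO were below both of WT for TRMT12, TYW1B and TRMT5 and above for LCMT2. Such non-overlap was common over all tested genes, at 27% of genes in the lower and 27.7% in the higher direction. Without WT replicate 1 the log2 fold change of TYW1 was 0.13, and without WT replicate 2 it was -0.28.

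No tested gene beside TYW1B or TRMT12 was called in KO against WT, where 1.34% of all tested genes were called higher and 0.622% lower. Of 15 genes in the table that lie at least partly within 500 kb of the start of TYW1B, 7 were tested and 0 were called in KO against WT, with log2 fold changes from -0.23 to 0.89. The nearest, the pseudogene SBDSP1, begins 1.2 kb away and had a log2 fold change of 0.10 (SE 0.17), and POM121, a nuclear pore protein gene 51.1 kb away, had 0.29 (SE 0.14). CALN1, on the other side, had -0.23 (SE 0.16). Around TRMT12, 10 genes were in the table, 5 were tested and 0 were called (-0.15 to 0.003). RNF139, a membrane ubiquitin ligase gene that begins 24.1 kb downstream, had a log2 fold change of -0.15 (SE 0.11), and TMEM65, a mitochondrial membrane protein gene on the other side, had -0.05 (SE 0.12). At an unadjusted p under 0.05 by edgeR, 0 of these 12 tested neighbours differed, and DESeq2 called 0 of the 10 for which it gave an adjusted p. The share of all tested genes under the unadjusted threshold was not counted. With so few calls over all tested genes, nothing particular to these neighbours is read from 0 calls.

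**Figure D3:**
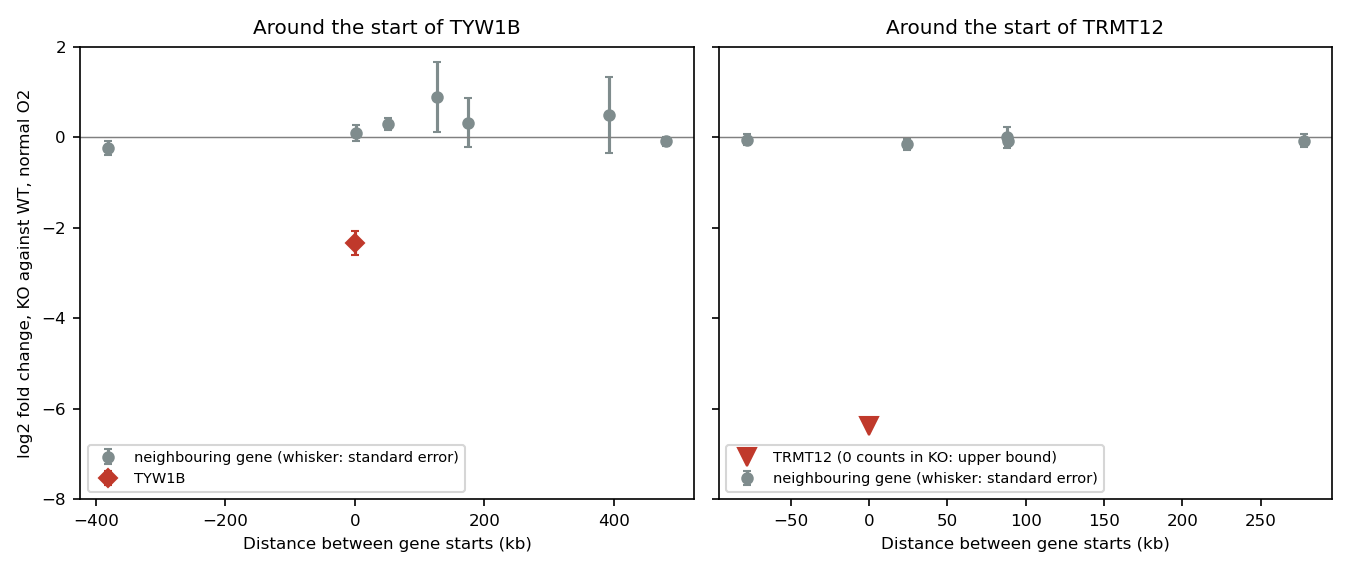
Log2 fold change of untreated KO against WT (vertical axis) for tested genes within 500 kb of TYW1B and TRMT12, by the distance between gene starts in kilobases (horizontal axis, positive towards higher coordinates), with standard errors. TYW1B at -2.33 and the upper bound of TRMT12 (triangle, from the 83.5-fold floor) lie below all neighbours, which range from -0.23 to 0.89. Both genes were chosen on this contrast, so nothing is read from that difference.

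The genes whose pattern over the 8 libraries was nearest to TYW1B or TRMT12 were listed by the root mean square difference of centred log2 CPM. For TYW1B they were MYH2, a skeletal muscle myosin heavy chain (0.28), LINC02575, a long noncoding RNA (0.36), and CYP4F22, a fatty acid hydroxylase of skin lipid synthesis (0.47), against a spread of 1.20 for TYW1B about its own mean. MYH2 was low throughout, at 1.30 CPM in WT and 0.165 in untreated KO cells, while LINC02575 was at 11.6 and 3.13 and CYP4F22 at 5.34 and 0.804. For TRMT12 they were LOC728613 (1.08), LOC101928595 (1.16) and DNAJA4, a co-chaperone of the HSP40 family (1.24), against 2.73 for TRMT12 itself. LOC728613 was low throughout, at 0.944 CPM in WT and 0 in untreated KO cells, while LOC101928595 was at 33.2 and 2.57 and DNAJA4 at 4.75 and 0.0892. This likeness is a description, and it includes the contrast by which the genes were chosen.

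The other tRNA modification genes were then compared. The list held 83 genes, for other modifications beside the anticodon, modifications of the wobble base, other methyltransferases, and pseudouridine, dihydrouridine and related enzymes, and 81 of them were tested. By the quasi-likelihood test of edgeR, with p adjusted by Benjamini-Hochberg over all tested genes, 0 of 81 were called in KO against WT in either direction, where 1.34% of all tested genes were called higher and 0.622% lower. At an unadjusted p under 0.05, 2 were higher and 9 lower, and DESeq2 called 0 higher and 1 lower. Their median log2 fold change was -0.05, against -0.002 over all tested genes, and the values ran from -0.52 for ELP4, a subunit of the Elongator complex that modifies the wobble base, to 0.42 for ADAT1, an adenosine deaminase of alanine tRNA. Of the 3 phenylalanyl-tRNA synthetase genes, which charge the tRNA that carries wybutosine, the log2 fold changes ran from -0.05 (FARSB) to 0.11 (FARS2), and 0 were under an unadjusted p of 0.05 or called by DESeq2. Among genes that supply the pathway or share its chemistry, 0 of 10 genes of S-adenosylmethionine supply, 0 of 9 of cytosolic iron-sulfur assembly, 0 of 6 other radical S-adenosylmethionine enzymes and 0 of 9 small JmjC hydroxylases were called. At an unadjusted p under 0.05 these 4 lists had 0, 1, 0 and 0 genes higher and 3, 3, 0 and 0 lower, and DESeq2 called 1 gene of S-adenosylmethionine supply lower and 0 in the other 3 lists. The share of all tested genes under the unadjusted threshold was not counted, so nothing is read from the unadjusted counts of any list.

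NAC was compared with no treatment in KO cells, and 3 of the 5 testable wybutosine genes were higher. TRMT12 and TYW1B were not tested here because their untreated KO libraries had been used to choose them. TRMT5 was at 33.9 and 32.2 CPM in untreated KO cells and at 50.1 and 56.2 CPM with NAC, a log2 fold change of 0.68 (SE 0.11, adjusted p = 0.000347, edgeR). TYW3 rose from 14.7 and 12.5 CPM to 19.2 and 23.9 CPM (0.66, SE 0.15, adjusted p = 0.00384), and TYW5 from 11.8 and 11.8 CPM to 15.8 and 22.7 CPM (0.70, SE 0.17, adjusted p = 0.00566). In these 3 genes both NAC libraries stood above both untreated KO libraries, as they did in 36.2% of all tested genes.

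TYW1 and LCMT2 did not pass the test. TYW1 was at 31.01 and 25.1 CPM with NAC (0.17, SE 0.15, adjusted p = 0.397). The NAC libraries of LCMT2 were far apart, at 14.04 and 21.6 CPM, on either side of untreated KO cells (-0.01, SE 0.18, adjusted p = 0.961), and without NAC replicate 1 its log2 fold change was 0.26. TYW1B had a log2 fold change of -0.43 (SE 0.27), given without a test. The share of 3 in 5 stands beside 23.8% of all tested genes called higher with NAC and 20.8% called lower.

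Fold changes with NAC followed the GC content of genes across the whole table (Spearman rho -0.49 over 14828 genes, which are not independent replicates; -0.23 for transcript length). TYW3 and TYW5 are among the AT-rich members, with a GC content of 38.1% and 38.3%, and TRMT5 is at 39.2%, while the other 4 are at 46.1% to 47.7%. After a smooth trend on length and GC content was removed from each library, TRMT5 remained higher with NAC (0.38, SE 0.09, adjusted p = 0.0126), TYW5 was at 0.44 (SE 0.17, adjusted p = 0.0804) and TYW3 at 0.07 (SE 0.14, adjusted p = 0.76). TYW3 also missed the threshold without untreated KO replicate 2 (0.55, adjusted p = 0.0546).

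**Figure D4:**
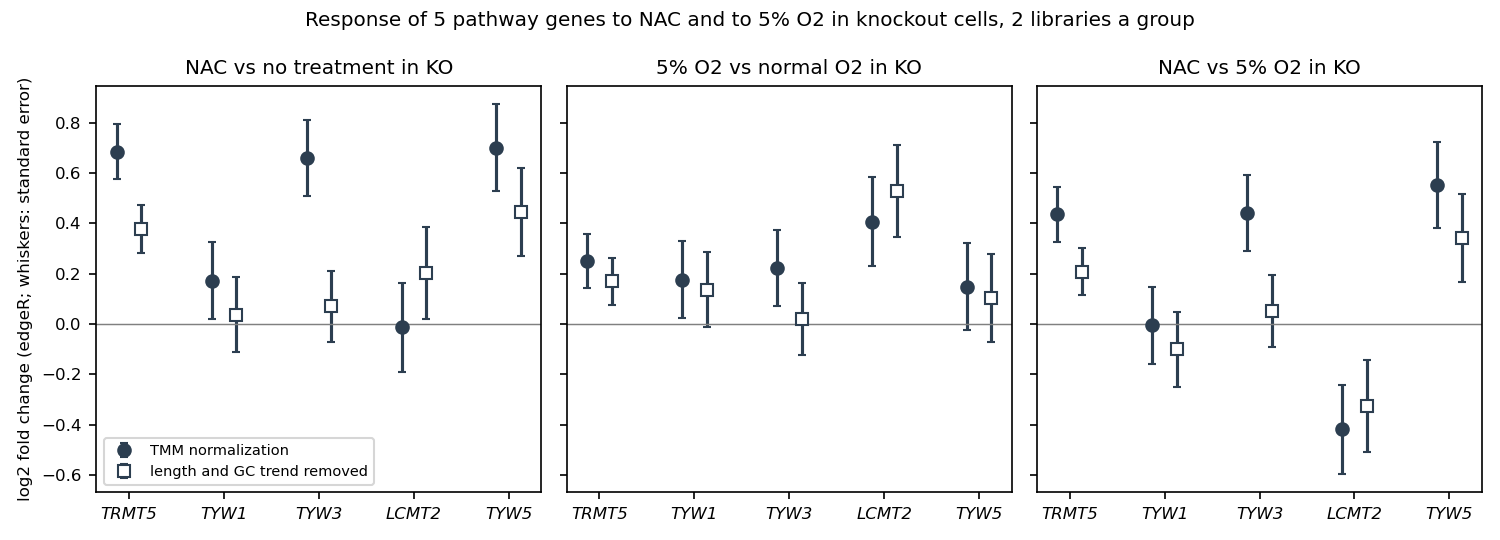
Log2 fold changes (vertical axis) of the 5 members tested in every treatment comparison, with standard errors, before (filled circles) and after (open squares) removal of a trend on transcript length and GC content. With NAC against no treatment, TRMT5, TYW3 and TYW5 lie between 0.66 and 0.70 before and at 0.38, 0.07 and 0.44 after removal.

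At 5% O2, 0 of the same 5 genes were called by edgeR, where 3.68% of all tested genes were called higher and 4.13% lower. LCMT2 was the largest, at 24.6 and 22.8 CPM against 17.2 and 18.7 CPM in untreated KO cells (0.41, SE 0.18, adjusted p = 0.178). These 5% O2 libraries of LCMT2 were above the other 6 libraries, and the share of all tested genes with that pattern was not counted. TRMT5 was at 41.8 and 36.8 CPM (0.25, SE 0.11, adjusted p = 0.181), and TYW1, TYW3 and TYW5 had log2 fold changes of 0.18, 0.22 and 0.15 (adjusted p from 0.4 to 0.647). At an unadjusted p under 0.05, LCMT2 and TRMT5 were higher, and DESeq2 called 0 of the 5. The share of all tested genes under that unadjusted threshold was not counted, so nothing is read from it. All 5 had both libraries at 5% O2 above both untreated KO libraries, as did 30.7% of all tested genes. LCMT2 passed when only these 4 libraries were fitted (adjusted p = 0.0207) and when either NAC library was left out (0.0244 in each case). TYW1B had a log2 fold change of -0.72 (SE 0.28), without a test. Both treatments were compared with the same untreated KO libraries.

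NAC and 5% O2 libraries were also compared with each other, without the normal O2 libraries on which the genes were chosen. The genes were still picked with earlier results of these data known, so independence from that choice is not established. TRMT12, with 0, 2, 4 and 6 counts in NAC and 5% O2 libraries, passed the filter only through WT cells and was not tested. The other 6 genes were tested. TRMT5 (log2 fold change 0.43, SE 0.11, adjusted p = 0.0114), TYW5 (0.55, SE 0.17, adjusted p = 0.0306) and TYW3 (0.44, SE 0.15, adjusted p = 0.0473) were higher with NAC. Thus 3 of 6 were higher and 0 lower, against 15.5% and 13.6% of all tested genes. These calls were close to the threshold: 0 of the 3 passed after the length and GC trend was removed, and TYW3 and TYW5 missed it without any one of 7 libraries, all but NAC replicate 1, and TRMT5 without 5% O2 replicate 2 (adjusted p = 0.132).

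TYW1B did not differ detectably between the treatments. With NAC it was at 120% of its 5% O2 level (95% interval 89.2% to 162%, counting error only; log2 fold change 0.29, SE 0.28, adjusted p = 0.488). For TRMT12 the 2 counts with NAC against 10 at 5% O2 give a level of 21.4% (95% interval 2.27% to 100.2%, counting error only), given without a test. LCMT2 was lower with NAC without passing (-0.42, SE 0.18, adjusted p = 0.0963), and TYW1 had a log2 fold change of -0.005 (SE 0.15, adjusted p = 0.985).

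In the wider set of 81 tested tRNA modification genes, NAC was followed by many calls, 42 higher and 11 lower, where 23.8% of all tested genes were called higher and 20.8% lower, with a median log2 fold change of 0.36 against 0.02 over all tested genes. Among other modifications beside the anticodon, 6 of 11 were higher and 0 lower: OSGEPL1 (1.01), TPRKB (0.79) and YRDC (0.76), which act in threonylcarbamoyladenosine synthesis, and TRIT1 (0.74), which isopentenylates adenosine, were the largest. Among 24 genes for the wobble base, 10 were higher and 5 lower, with ELP4 (1.03) and ELP2 (0.74) of Elongator and MTO1 (0.72) of mitochondrial tRNA at the top. Among 26 other methyltransferases 14 were higher and 3 lower, led by TRMT11 (1.04), TRMT13 (0.99), METTL2A (0.95) and TRMT10C (0.94). Among the 20 pseudouridine, dihydrouridine and related enzymes 12 were higher and 3 lower, with TRUB1 (0.93) and DUS4L (0.83) first.

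After the length and GC trend was removed, 26 of the 81 were higher and 3 lower with NAC. Of the genes named above, YRDC (0.67), TRIT1 (0.69), ELP4 (0.75), ELP2 (0.89), MTO1 (0.94), TRMT11 (0.57) and METTL2A (1.02) still passed. OSGEPL1 (0.38), TRMT13 (0.13), TRMT10C (0.14), TRUB1 (0.17) and DUS4L (0.28) did not, and TPRKB changed sign (-0.09, adjusted p = 0.563). Without untreated KO replicate 1 the counts were 24 and 7, without untreated KO replicate 2 they were 25 and 6, and without NAC replicate 1 they were 37 and 6. At 5% O2, 2 of 81 were higher, TRUB1 (0.43) and TRMT10C (0.37), and 2 lower, DUS1L (-0.48), a dihydrouridine synthase, and GTPBP3 (-0.40), a mitochondrial wobble base enzyme, where 3.68% of all tested genes were called higher and 4.13% lower. These 4 did not pass after removal of the trend or without either untreated KO library, and 9 were higher without either NAC library. With NAC against 5% O2, 24 were higher and 3 lower, where 15.5% of all tested genes were called higher and 13.6% lower, and 5 higher and 2 lower without 5% O2 replicate 2.

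Genes that supply the pathway or share its chemistry were counted in 5 short lists with NAC, beside 23.8% of all tested genes called higher and 20.8% lower, and nothing particular to these lists is read from their counts. FARSB, the beta subunit of cytosolic phenylalanyl-tRNA synthetase, was higher (0.54, adjusted p = 0.000342), 1 of 3 in its list. Of 10 genes of S-adenosylmethionine supply 4 were higher and 2 lower, among them MAT2B, the regulatory subunit of methionine adenosyltransferase (1.06), AHCY, which clears S-adenosylhomocysteine (0.79), and MTAP, which salvages methylthioadenosine (-0.48). Of 9 iron-sulfur assembly genes 4 were higher and 1 lower, from CIAO2A (0.88) to NDOR1 (-0.90), and both of these lost their call with the trend removed (0.16 and -0.14). Of 6 radical S-adenosylmethionine enzymes other than TYW1, 3 were higher, with LIAS, the lipoyl synthase, first (0.60, and 0.24 with no call after the trend was removed); CDK5RAP1 and ELP3, the other two, also stand in lists above. Of 9 small JmjC hydroxylases other than TYW5, 1 was higher and 3 lower, with RIOX1 (-0.68) and JMJD8 (-0.60) largest. With the trend removed RIOX1 was still called (-0.45), JMJD8 was not (-0.23), and HIF1AN, an oxygen-dependent asparagine hydroxylase, went from -0.51 to 0.03 with the trend removed. At 5% O2, MAT2B (0.45, adjusted p = 0.0283) and CIAPIN1 (0.36, adjusted p = 0.0374) were the genes called in these 5 lists, and both missed the threshold with the trend removed.

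**Figure D5:**
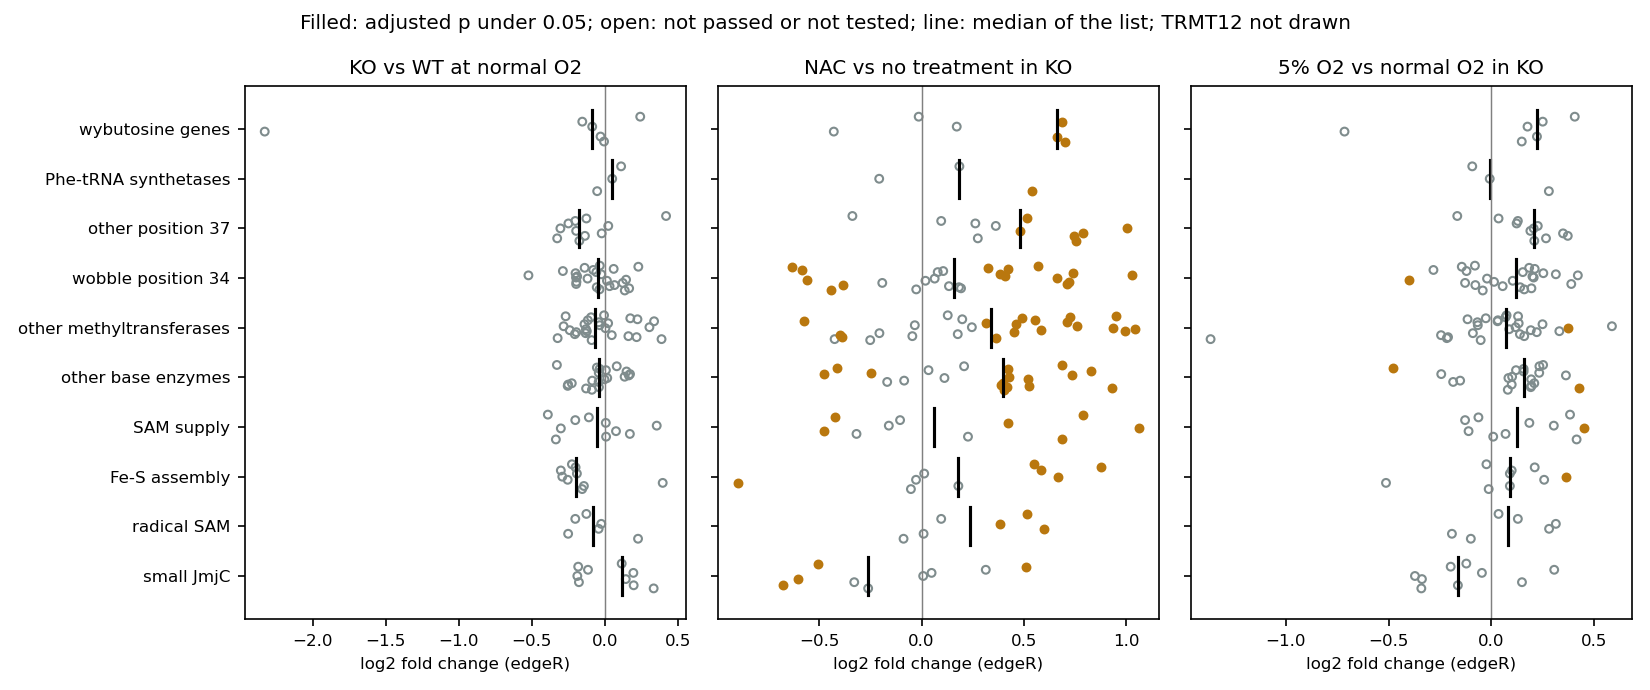
Log2 fold change (horizontal axes) of each tested gene of the wybutosine pathway and of 9 related lists in 3 comparisons, with filled points for an adjusted p under 0.05, open points for genes not passed or not tested, and a line at the median of each list. TRMT12 is not drawn. In KO against WT, TYW1B is at -2.33, and since it was chosen on this contrast nothing is read from its distance to the other genes. No gene of the 9 related lists was called there, where 1.34% of all tested genes were called higher and 0.622% lower. With NAC 42 of 81 other tRNA modification genes are higher.

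The protein-coding genes whose starts lie nearest to those of the wybutosine genes were followed as well, a set chosen after values had been seen. It leaves out the pseudogene SBDSP1, which begins nearest to TYW1B and is given above. SLC38A6 begins 56 bp from TRMT5, ADAL 90 bp from LCMT2, CRYZ 256 bp from TYW3, MAIP1 419 bp from TYW5 and SBDS 520 bp from TYW1, each on the opposite strand and measured between the starts of GENCODE gene spans, which for TYW1 is that of its short upstream transcript. CRYZ overlaps TYW3, SLC38A6 overlaps TRMT5, MAIP1 overlaps TYW5 and SBDS overlaps TYW1, and featureCounts at default settings ignores strand and drops reads shared by overlapping genes. With NAC, CRYZ (1.19), SLC38A6 (1.00), ADAL (0.60), MAIP1 (0.53) and SBDS (0.33, adjusted p = 0.0494) were higher than in untreated KO cells. With the trend removed CRYZ alone of these 5 was still called (0.33, adjusted p = 0.0462). Near TRMT12 and TYW1B, RNF139 was higher with NAC (0.80) and POM121 lower (-0.90), and neither passed with the trend removed (0.33 and -0.21).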

How the data were processed

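RNA-seq libraries of WA26 hESCs were made by the authors with an Illumina TruSeq RNA kit, and what they deposited are whole-number counts for each gene, not normalized. For these counts, reads were trimmed (trim-galore), aligned to hg38 (hisat2) and assigned to genes (featureCounts, default settings) by the authors. The annotation used for counting is not given in the sources used here. Of 12 labelled samples, 8 had a column in the count table. The study describes replicates of a group as biological, but the labels name neither the culture nor the clone behind each library, so p-values measure the spread between these libraries. Libraries of the same group were further apart than sampling noise (chi-square per gene from 9.53 to 30.7).

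Genes were filtered with filterByExpr (minimum count 10) and normalized by TMM, and the quasi-likelihood test of edgeR 4.0.16 (R 4.3.3) was fitted with 1 term per group over 8 libraries (4 residual degrees of freedom, biological coefficient of variation 13.7%). P-values were adjusted by Benjamini-Hochberg over 15916 genes, with a threshold of 0.05. TRMT12 was given no test in any comparison, although one had been planned for NAC against 5% O2, since it passed the filter only through WT libraries. Standard errors (SE) were taken from the log2 fold change and the F statistic. Intervals and floors cover counting error only. Alternatives were normalization by RLE or upper quartile, DESeq2 1.42.0, 2 filters, fits restricted to the libraries compared, a replicate block, removal of a trend on transcript length and GC content per library (mgcv 1.9.3; known for 93.2% of tested genes), both together, and leaving out each library. The members and gene lists were chosen with earlier results of these data known, and the same alternatives for lists, neighbours and nearest starts were added after seeing the data. Named genes are the members, up to 4 called genes of a list with the largest change, neighbours within 500 kb and the 3 nearest patterns. On simulated counts of KO against WT, 100 of 100 genes changed by 2 on the log2 scale and 92 of 100 changed by 1 were called, with 14 unchanged genes called among 15694 tested. The changed genes were drawn from well-counted genes, all genes had the same coefficient of variation, and no length or GC trend was simulated. The simulation therefore does not give the share recovered among real genes or genes with low counts. Same-numbered libraries did not deviate together (correlations from -0.02 to 0.03).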

Additional observations from a re-analysis of the deposited data

How the results depend on the processing

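With 2 libraries per group, counts of calls moved with the setting. In KO against WT, 312 genes were called, and 860 with DESeq2, 1252 with no filter, 1124 when only the libraries compared were fitted, 179 with the replicate block and the length and GC trend removed, and 64 to 1311 without single libraries. With NAC in KO, 7100 were called, against 4515 with the trend removed, 4319 with block and trend, and 5031 to 7591 without single libraries; wybutosine genes higher went from 3 to 1 with the trend removed, 1 with block and trend, and 2 to 3 without single libraries. At 5% O2, 1243 were called, against 2144 with DESeq2, 2220 with no filter, 3009 with only the libraries compared, 403 with the trend removed, 340 with block and trend, and 36 to 2763 without single libraries; wybutosine genes higher went from 0 to 1 with only the libraries compared and 0 to 1 without single libraries. For NAC against 5% O2, 4635 were called, against 3050 with only the libraries compared, 2747 with the trend removed, 2556 with block and trend, and 1354 to 5468 without single libraries. There, wybutosine genes higher went from 3 to 0 with only the libraries compared, with the trend removed, and with block and trend, 2 under RLE, upper quartile or block alone, and 0 to 3 without single libraries, and those lower from 0 to 1 with DESeq2 (LCMT2, adjusted p = 0.0473), 1 with no filter, and 0 to 1 without single libraries (LCMT2, adjusted p = 0.00122, without NAC replicate 2). The cause was not tested.

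The replicate numbers did not pair the libraries, and the block alone moved 1 call of a wybutosine gene, TYW3 in NAC against 5% O2 (adjusted p = 0.0541). LCMT2 with NAC changed sign with the trend removed (0.20), with block and trend (0.19), without untreated KO replicate 2 (0.049) and without NAC replicate 1 (0.26), never past the threshold, and ran from -0.35 to 0.26 without single libraries. TYW1 in NAC against 5% O2 changed sign without 5% O2 replicate 2 (0.075) or NAC replicate 2 (0.14), with -0.17 to 0.14 without single libraries. TPRKB changed sign with the trend removed in NAC against KO (-0.091 with and without the block) and against 5% O2 (-0.061, and -0.062 with the block), as did HIF1AN in NAC against KO (0.027 with and without it). Per kilobase of mean instead of longest transcript, WT levels were 17.1 for TRMT5, 16.7 for TYW1, 10.1 for TYW3, 5.38 for TRMT12, 5.13 for TYW1B, 3.58 for LCMT2 and 2.89 for TYW5 CPM, which exchanges only neighbours whose libraries overlapped.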

Other observations

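Of 11583 genes with at least 100 counts in both WT libraries, 3 had at most 3 counts in both untreated KO libraries: TRMT12, AK6 and S100A6. This rule was chosen after values had been seen, and TRMT12 had been picked for its loss in these same libraries. Its place among the 3 therefore follows from that choice, and nothing is read from it. AK6, a nuclear adenylate kinase, had 130 and 100 counts in WT and 1 and 0 in untreated KO cells, but 189 in 5% O2 replicate 1 and 3 in each of the other treated KO libraries. S100A6, a small calcium-binding protein, had 228 and 230 counts in WT, 2 and 0 in untreated KO cells and 0 and 0 at 5% O2, but 369 in NAC replicate 1 and 2 in NAC replicate 2. TRMT12 was the one of these genes that stayed at 6 counts or fewer in all 6 KO libraries, a limit that is its own highest KO count. By the mirrored rule, with at most 3 counts in both WT and at least 100 in both untreated KO libraries, TRIM4 (0 and 2 against 303 and 313 counts) and ZNF723 (0 and 0 against 136 and 183) were found, and both kept at least 112 counts in every treated KO library.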
